A study of Mus musculus with 10 samples.

Results

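Peroxisomes are small organelles bounded by 1 membrane that shorten very long-chain and branched fatty acids, make the first intermediates of ether lipids and break down hydrogen peroxide. Their proteins are made in the cytosol and brought in by peroxins, whereas the enzymes of the matrix carry out the chemistry. In brown adipose tissue (BAT), which burns fat to make heat, peroxisomes are abundant, and shortened acyl chains can pass on to the mitochondria for complete oxidation. Many genes of peroxisomal β-oxidation are known targets of the peroxisome proliferator-activated receptors (PPARs). The expression of 36 peroxisomal genes was examined here in BAT without adipocyte STAT5. They were given as a list of gene symbols, and all 36 were found among the 24454 genes of the count tables and among the 13568 genes tested. They comprise 13 peroxins, 3 ATP-binding cassette (ABC) transporters and 20 enzymes.

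RNA-Seq was performed on BAT of control and Stat5Adipoq mice, with 5 libraries per genotype, which the labels call basal. By the methods the mice were males, 2 months of age unless stated otherwise, on a C57BL/6N background and fed ad libitum. The methods give 5 replicates per genotype, and no source says that each was another mouse. The p-values therefore measure the spread between libraries, which may be technical. Stat5Adipoq mice carry floxed Stat5 alleles that are removed by Cre recombinase under the Adipoq promoter, which is active in adipocytes, so the other cells of the tissue keep the gene. The controls are floxed littermates without Cre according to the methods, whereas the labels call them wild type. The comparison asks how deletion of Stat5a and Stat5b in adipocytes changes the messenger RNA of these genes in the basal state.

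The libraries held 8488129 to 19514904 counts on genes, and the members averaged 95.9 to 17437 counts per library, so all 36 were well above the filter on low counts. Stat5a was 105 ± 17.0 CPM (counts scaled to library size; SD, n = 5) in control and 17.1 ± 2.05 CPM in Stat5Adipoq BAT, and Stat5b was 83.8 ± 5.51 and 21.8 ± 0.723 CPM. Markers of brown adipocytes were abundant in every library, with Ucp1 between 5402 and 13831 CPM. Of 9 such markers 1 passed the test, Cox7a1, which was higher. Control replicate 3 stood apart, since 9 of 10 liver genes and 11 of 11 skeletal muscle genes had their highest level there. The summed muscle markers reached 4887 CPM in it, 6.24 to 401 CPM in the other controls and 3.14 to 55.1 CPM in the Stat5Adipoq libraries. Of the marker lists, the liver list had 1 gene lower (Cyp2e1, which adipose tissue also expresses) and the white adipocyte list 1 of 4 tested genes lower (Retn). No gene of the skeletal muscle (11), macrophage (7), endothelium (5), fibroblast (6), Schwann cell (4) and lymphocyte (5) lists was called by edgeR. At an unadjusted p under 0.05 the counts were 11, 0, 1, 0, 3 and 1, and DESeq2 called 4 muscle genes lower and none of the other 5 lists. 

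Stretches before the start of the 5 genes the results turn on are printed here to set the sequence beside the measurements. They are RefSeq promoter windows of GRCm38.p6, read 5′ to 3′ on the strand of the gene, from 250 bases before the start up to the start or to the first annotated exon base. Capitals mark letters of a STAT5 site (TTCNNNGAA) or of a PPAR element, a direct repeat of AGGTCA with 1 base between the copies and at most 2 mismatches.
Ehhadh, chr16:21787835-21788084, minus strand: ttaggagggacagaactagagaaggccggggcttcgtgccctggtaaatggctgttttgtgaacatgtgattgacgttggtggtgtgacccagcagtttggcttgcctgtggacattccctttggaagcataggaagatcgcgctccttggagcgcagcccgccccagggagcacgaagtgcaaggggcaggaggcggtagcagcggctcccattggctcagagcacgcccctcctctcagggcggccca
Pex16, second start, chr2:92374989-92375238, plus strand: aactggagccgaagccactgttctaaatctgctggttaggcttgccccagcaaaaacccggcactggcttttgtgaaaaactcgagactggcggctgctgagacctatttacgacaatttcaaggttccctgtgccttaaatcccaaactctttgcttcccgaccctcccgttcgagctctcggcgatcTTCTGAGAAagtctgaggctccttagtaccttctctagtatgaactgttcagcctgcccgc
Ech1, chr7:28825088-28825216, plus strand: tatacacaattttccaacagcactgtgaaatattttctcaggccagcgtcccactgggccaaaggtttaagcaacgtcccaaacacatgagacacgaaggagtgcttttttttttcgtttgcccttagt
Phyh, chr2:4918746-4918995, plus strand: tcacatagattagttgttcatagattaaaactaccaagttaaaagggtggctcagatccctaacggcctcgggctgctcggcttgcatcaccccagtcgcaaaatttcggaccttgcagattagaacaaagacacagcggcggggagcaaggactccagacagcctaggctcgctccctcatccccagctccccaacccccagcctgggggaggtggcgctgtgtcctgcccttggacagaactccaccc
Cat, chr2:103485161-103485403, minus strand: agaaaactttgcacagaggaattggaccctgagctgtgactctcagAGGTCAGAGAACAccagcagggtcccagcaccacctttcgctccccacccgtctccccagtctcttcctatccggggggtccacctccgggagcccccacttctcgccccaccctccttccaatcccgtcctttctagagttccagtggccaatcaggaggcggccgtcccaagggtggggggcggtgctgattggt
The Pex16 stretch holds TTCTGAGAA, beginning 61 bases before its second RefSeq start. This stretch lies after the first start, 92374676, within the span of the gene. The window at the first start holds no such letters, and its end occurs in an annotated (GENCODE) transcript of Pex16. The end of the window at the second start was not found in one. The end of the Ehhadh window was likewise not found in a transcript of its gene. The Cat stretch holds AGGTCAGAGAACA, with 2 mismatches, beginning 204 bases before the start. No letters were capitalised in the stretches of Ehhadh, Ech1 and Phyh, which says only that these letters are not in these windows. Windows of 300 bases, from 250 before to 50 after the start, were given for 30 of the 36 members (34 windows), and both strands were searched. STAT5 letters were in the windows of 1 of these 30 members, Pex16, and of 8.23% of the 10756 tested genes that have a window. PPAR letters were in the windows of 2 of the 30 members, Cat and Acot4, and of 3.59% of the tested genes with a window.

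Among the 36 members, 4 passed an adjusted p of 0.05 (edgeR, quasi-likelihood, Benjamini-Hochberg over all tested genes). Of all 13568 genes, 2.71% were called, 1.40% higher and 1.31% lower in Stat5Adipoq BAT. The peroxin Pex16 and the β-oxidation enzyme Ehhadh fell, while Ech1, an isomerase for unsaturated acyl chains, and Phyh, the first enzyme of phytanic acid breakdown, rose. In bulk tissue, fewer cells of a type and less RNA per cell cannot be told apart. DESeq2's Wald test called the same 4 and added Cat, the catalase of the peroxisome, which was higher, where it called 4.86% of all genes, 2.40% higher and 2.46% lower. The libraries of the genotypes did not overlap for these 5 members, 3 higher and 2 lower, and for 4.39% of all tested genes, 2.35% higher and 2.04% lower. An unadjusted p under 0.05 was found for 12 members, 4 higher and 8 lower, and 15.2% of all genes, 974 higher and 1090 lower. A difference of less than 1.2-fold in either direction was estimated for 30 of the 36 members and for 10675 of the 13568 tested genes. The median log2 fold change was -0.05 for the members, beside -0.003 over all genes.

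**Figure D1:**
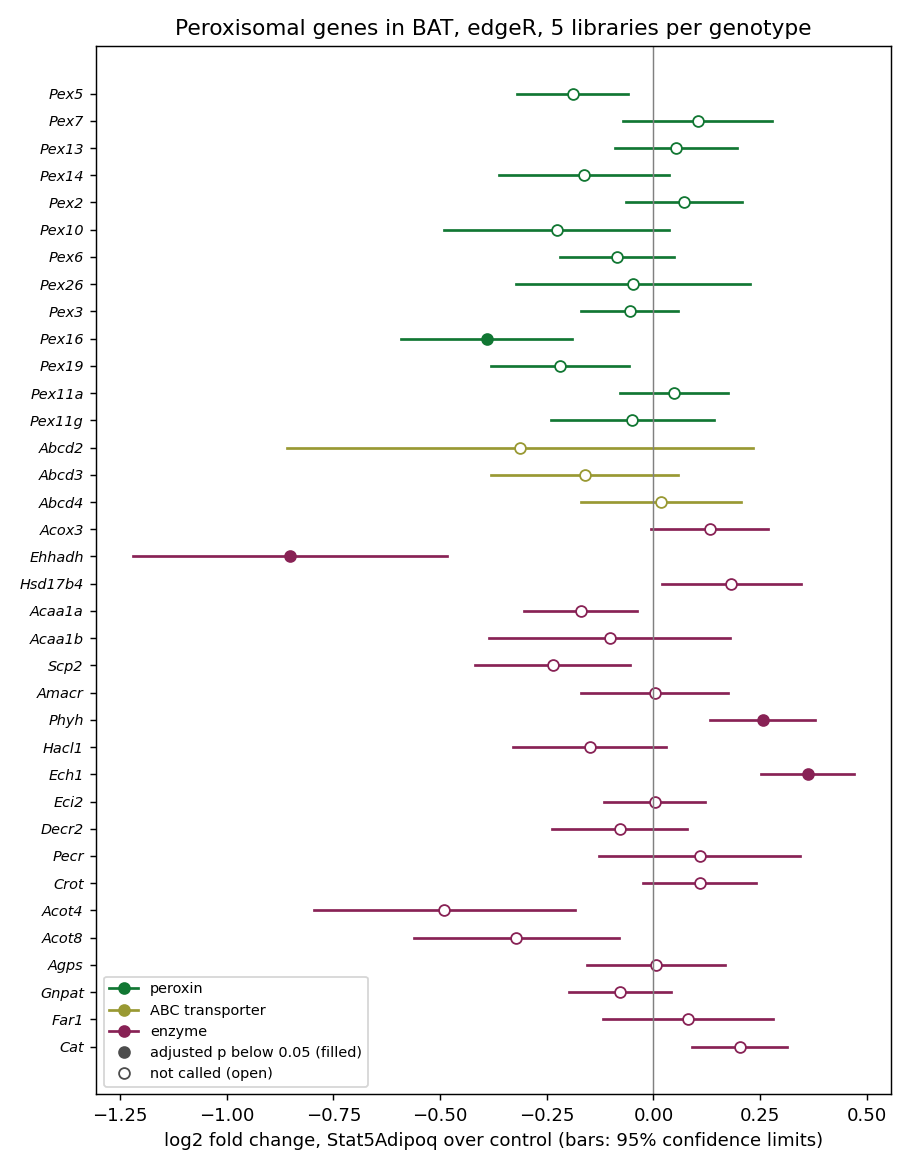
Log2 fold change of each of the 36 members (Stat5Adipoq over control, points) with 95% confidence limits (bars) from edgeR, 5 libraries per genotype, coloured by class and filled where the adjusted p was under 0.05. Ehhadh lies farthest from 0 at -0.85, Ech1 and Phyh lie to the right of 0, and Pex16 is the filled peroxin.

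Peroxins and enzymes were compared side by side. Of the 13 peroxins 1 was lower and none higher by edgeR, and DESeq2 gave the same counts. At an unadjusted p under 0.05, 3 peroxins were lower and none was higher. Of the 20 enzymes 2 were higher and 1 lower by edgeR, and 3 were higher and 1 lower by DESeq2. Of all tested genes edgeR called 1.40% higher and 1.31% lower, and DESeq2 2.40% and 2.46%. Among the enzymes 4 were higher and 5 lower at an unadjusted p under 0.05. Over all 13568 tested genes, 974 were higher and 1090 lower at that unadjusted p. The median log2 fold change was -0.06 for the peroxins, with a range of -0.39 to 0.10, and 0.003 for the enzymes, with a wider range of -0.85 to 0.36. Fold changes were below 0 for 9 of the 13 peroxins, 9 of the 20 enzymes and 50.8% of all tested genes. The difference between the classes was not tested, because genes of a class are not replicates. Relative to the control mean of each gene, the median over the peroxins lay between -0.09 and 0.12 (log2 CPM) in the control libraries and between -0.08 and -0.03 in the Stat5Adipoq libraries. The same median over the enzymes lay between -0.07 and 0.09 and between -0.09 and 0.08. The genotypes thus overlapped in both classes. The peroxin medians of the 5 Stat5Adipoq libraries were all below 0 and lay within the range of the controls. The control mean of each gene sets the 0, so the controls lie around it by construction.

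**Figure D2:**
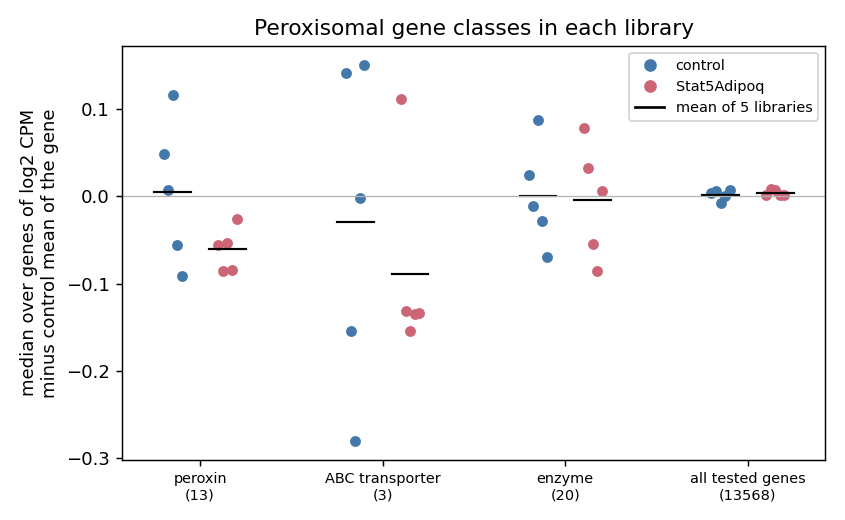
Median over the genes of a class of log2 CPM minus the control mean of the gene, 1 point per library (5 control, 5 Stat5Adipoq), with the mean of 5 libraries as a line and the number of genes under each class. The peroxin points of Stat5Adipoq libraries lie between -0.08 and -0.03, within the spread of the controls, and the enzyme points of the genotypes overlap.

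Among the peroxins, PEX5 and PEX7 are the soluble receptors that bind the targeting signals of matrix proteins. Pex5 was 189, 174, 188, 173 and 158 CPM in the control libraries and 162, 153, 144, 156 and 157 CPM in the Stat5Adipoq libraries. Its libraries overlapped only through control replicate 5 and Stat5Adipoq replicate 1, and its log2 fold change of -0.19 (95% confidence limits -0.32 and -0.06) did not pass adjustment (adjusted p = 0.14 by edgeR and 0.057 by DESeq2). Pex7 had a log2 fold change of 0.10. PEX13 and PEX14 form the docking site for the loaded receptors at the membrane. Pex14 was 129, 125, 150, 119 and 101 CPM in control and 109, 105, 104, 117 and 123 CPM in Stat5Adipoq BAT, values that overlap widely (log2 fold change -0.16, adjusted p = 0.44 by edgeR). For Pex14, 28.3% of exon bases also lie in an exon of an antisense gene, and for Pex11g 41.1%. The strand setting of the counting is not stated, so their counts are uncertain. Pex13 had a log2 fold change of 0.05.

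PEX2 and PEX10 belong to the membrane ubiquitin ligase that marks used receptors, and PEX6 and its anchor PEX26 pull these receptors back into the cytosol. The log2 fold changes were 0.07 for Pex2, -0.23 for Pex10, -0.09 for Pex6 and -0.05 for Pex26, and none passed the test. PEX11 proteins elongate and divide peroxisomes. Pex11a, a gene known to respond to PPARα, was 40.0 ± 1.52 CPM (SD, n = 5) in control, against 41.4 ± 2.65 CPM in Stat5Adipoq BAT, with confidence limits of -0.08 and 0.17 on the log2 scale, and Pex11g had a log2 fold change of -0.05.

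PEX3, PEX16 and PEX19 insert membrane proteins and are needed for the formation of the peroxisomal membrane itself. All 3 had fold changes below 0, and 1 passed the test. Pex16, on chromosome 2 of GRCm38 from 92374676 to 92381220, was 127, 141, 142, 111 and 113 CPM in the control libraries and 96.3, 86.7, 86.2, 109 and 104 CPM in the Stat5Adipoq libraries. All 5 Stat5Adipoq libraries lay below the lowest control, although Stat5Adipoq replicate 4 and control replicate 4 were close, at 108.8 and 111.2 CPM. The log2 fold change of Pex16 was -0.39 (standard error 0.09, adjusted p = 0.043 by edgeR and 0.0034 by DESeq2, exact two-sided permutation test p = 0.0079, the smallest that 5 against 5 libraries can give). The call was near the threshold. Leaving out 1 library at a time lost it in 8 of 10 fits (adjusted p up to 0.12) and kept it without control replicate 4 or control replicate 5. The antisense gene Large2, which overlaps 7.16% of Pex16 exon bases, had at most 6 counts in any library. Pex19, which carries membrane proteins through the cytosol, was 328 ± 36.8 CPM (SD, n = 5) in control, against 282 ± 12.6 CPM in Stat5Adipoq BAT (log2 fold change -0.22, adjusted p = 0.17 by edgeR), and Pex3, its docking partner, had a log2 fold change of -0.06.

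**Figure D3:**
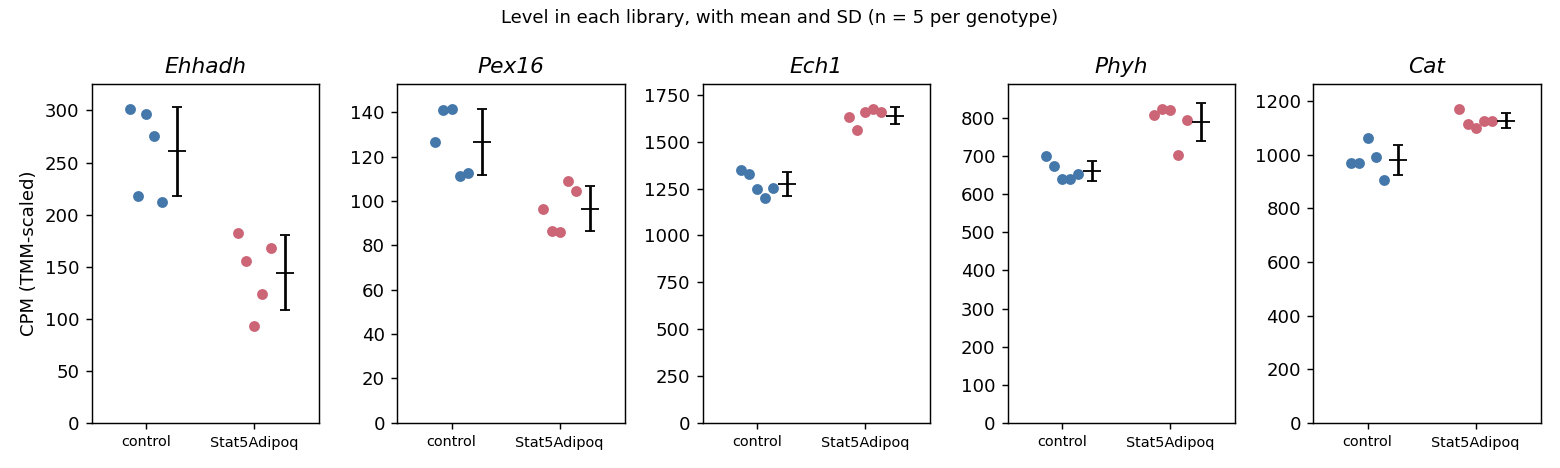
CPM of Ehhadh, Pex16, Ech1, Phyh and Cat in each control and Stat5Adipoq library (points), with mean and SD (bars, n = 5 per genotype) on axes that start at 0. In each panel the libraries of the genotypes do not overlap, with Ehhadh and Pex16 lower and Ech1, Phyh and Cat higher in Stat5Adipoq BAT.

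Fatty acids and their CoA esters enter the peroxisome through ABC transporters of the ABCD family. None of the 3 members passed the test by edgeR or DESeq2 or had an unadjusted p under 0.05. Abcd3, which transports branched and dicarboxylic acyl-CoAs, was the most abundant of them per length, with 626 ± 110 CPM (SD, n = 5) in control, against 559 ± 26.6 CPM in Stat5Adipoq BAT. Abcd2, a transporter of very long-chain acyl-CoAs, varied from 56.0 to 95.7 CPM among controls and from 35.1 to 99.3 CPM among Stat5Adipoq libraries, so its log2 fold change of -0.31 was imprecise (limits -0.86 and 0.23). Abcd4, which is now known as a lysosomal cobalamin transporter, had a log2 fold change of 0.02.

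In the core of peroxisomal β-oxidation an acyl-CoA oxidase, a bifunctional enzyme and a thiolase act in turn. Ehhadh, which encodes the L-bifunctional enzyme for hydration and dehydrogenation of straight-chain and dicarboxylic acyl-CoAs, changed most of all members. The gene spans chromosome 16 (GRCm38) from 21761285 to 21787834. Ehhadh was 302, 218, 296, 275 and 212 CPM in the control libraries and 182, 155, 92.7, 123 and 168 CPM in the Stat5Adipoq libraries. Every Stat5Adipoq library was below every control, and the spread within each genotype was broad. On average it fell by 44.6% (log2 fold change -0.85, standard error 0.17, adjusted p = 0.021 by edgeR and 3.6e-05 by DESeq2, exact two-sided permutation test p = 0.0079). Its call stood in all 7 other settings and in 8 of the 10 fits without 1 library. The adjusted p was 0.052 without control replicate 1 and 0.063 without Stat5Adipoq replicate 4, and the log2 fold change stayed between -0.95 and -0.73. In control replicate 3, where most liver and all skeletal muscle markers were highest, Ehhadh was 296 CPM. Without this library its log2 fold change was -0.80 (adjusted p = 0.028 by edgeR). The summed liver list, most of it Cyp2e1, lay between 60.8 and 281 CPM in control and between 31.4 and 84.9 CPM in Stat5Adipoq libraries, and the summed white adipocyte list between 106 and 140 and between 32.0 and 110 CPM. Their part in the result for Ehhadh was not tested.

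The other bifunctional enzyme, encoded by Hsd17b4 and acting on branched and bile acid precursors as well as straight chains, did not fall. Hsd17b4 was 449, 421, 553, 472 and 421 CPM in control and 511, 495, 545, 542 and 539 CPM in Stat5Adipoq BAT. Control replicate 3 was the highest of all 10, and the other 4 controls lay below all Stat5Adipoq libraries (log2 fold change 0.18, confidence limits 0.02 and 0.35, adjusted p = 0.27 by edgeR). Without control replicate 3 the log2 fold change was 0.25 with an adjusted p of 0.029. For every 100 reads of Hsd17b4 there were 50.3 to 67.1 reads of Ehhadh in the control libraries and 17.0 to 35.7 in the Stat5Adipoq libraries, and the genotypes did not overlap in this ratio, which was chosen after the values were seen.

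Of the other core genes, none was called. Acox3, an oxidase for branched acyl-CoAs, had a log2 fold change of 0.13, and Amacr, a racemase that prepares branched chains, one of 0.003 (limits -0.17 and 0.18). The thiolase genes Acaa1a and Acaa1b are close copies. Acaa1a was 107, 97.3, 93.1, 106 and 99.9 CPM in control and 98.3, 89.9, 83.7, 90.6 and 84.5 CPM in Stat5Adipoq BAT (log2 fold change -0.17, adjusted p = 0.19 by edgeR). Acaa1b was 47.8, 38.2, 38.5, 54.8 and 48.3 CPM and 51.6, 47.9, 40.7, 39.4 and 32.8 CPM (log2 fold change -0.10, adjusted p = 0.79 by edgeR). Of the words of 50 bases, the read length, 15.6% of the longest Acaa1a transcript also occur in Acaa1b and 34.4% of Acaa1b in Acaa1a, so reads from these stretches cannot be placed in one copy. Scp2, which encodes a thiolase for branched chains together with a sterol carrier protein, was 352, 330, 420, 341 and 294 CPM in control and 315, 286, 288, 279 and 306 CPM in Stat5Adipoq BAT. Only control replicate 5 lay among the Stat5Adipoq libraries (log2 fold change -0.24, confidence limits -0.42 and -0.05, adjusted p = 0.19 by edgeR). A pseudogene shares 41.4% of the 50-base words of Scp2.

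Phytanic acid, a branched fatty acid from the diet, is shortened by 1 carbon in α-oxidation before it can enter β-oxidation. Phyh, its hydroxylase, was 701, 673, 639, 640 and 652 CPM in the control libraries and 807, 824, 821, 703 and 793 CPM in the Stat5Adipoq libraries. The genotypes did not overlap, although Stat5Adipoq replicate 4 was only just above control replicate 1, at 703.0 and 701.4 CPM. The log2 fold change was 0.26 (standard error 0.06, adjusted p = 0.033 by edgeR and 0.00040 by DESeq2). It was lost in 7 of the 10 fits without 1 library, where the adjusted p reached 0.093, and with scaling by library size alone (0.080). Phyh lies on chromosome 2 from 4918996 to 4938743. Hacl1, the lyase of the next steps, had a log2 fold change of -0.15 (adjusted p = 0.44 by edgeR), and other annotated genes hold 52.4% of its words of 50 bases.

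Auxiliary enzymes prepare double bonds that the core pathway cannot use. Ech1 encodes a dienoyl-CoA isomerase found in peroxisomes and mitochondria, and it was the most abundant member. It lies on chromosome 7 from 28825338 to 28832239. Ech1 was 1352, 1326, 1246, 1198 and 1254 CPM in the control libraries and 1634, 1564, 1660, 1676 and 1660 CPM in the Stat5Adipoq libraries. The lowest Stat5Adipoq library was well above the highest control. The log2 fold change was 0.36 (standard error 0.05, adjusted p = 0.0028 by edgeR and 4.6e-12 by DESeq2), a rise by a factor of 1.29. Ech1 was called in all 7 other settings and in all 10 fits that left out 1 library, with adjusted p-values of at most 0.021. The other auxiliary genes moved little. Eci2, an isomerase that shares both compartments, showed 0.003 on the log2 scale (limits -0.12 and 0.12), and those of the reductases Decr2 and Pecr were -0.08 and 0.11.

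Chain-shortened products leave the peroxisome as carnitine esters, made by CROT, or as free acids, released by thioesterases. Crot had a log2 fold change of 0.11. The thioesterase genes Acot4 and Acot8 had values of -0.49 and -0.32, with confidence limits of -0.80 and -0.18 and of -0.56 and -0.08, and neither passed adjustment (adjusted p = 0.098 and 0.17 by edgeR, 0.052 and 0.12 by DESeq2). Acot4 was among the least abundant members, at 9.15 ± 1.70 CPM (SD, n = 5) in control, against 6.53 ± 0.793 CPM in Stat5Adipoq BAT. It was called without control replicate 5, the control with the lowest level, and in no other fit.

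Ether lipid synthesis begins in the peroxisome with GNPAT, AGPS and the fatty acyl-CoA reductase FAR1. No gene of the 3 passed the test by edgeR or DESeq2 or had an unadjusted p under 0.05, with log2 fold changes of -0.08 for Gnpat, 0.006 for Agps and 0.08 for Far1. Their confidence limits lay between -0.20 and 0.28. Cat, which breaks down the hydrogen peroxide that the oxidases make, was 968, 970, 1061, 993 and 907 CPM in control and 1172, 1113, 1098, 1127 and 1125 CPM in Stat5Adipoq BAT. The genotypes did not overlap. Its log2 fold change of 0.20 (standard error 0.05) had an adjusted p of 0.062 by edgeR and of 0.0038 by DESeq2 (exact two-sided permutation test p = 0.0079). Without control replicate 3, the highest control, edgeR called it (adjusted p = 0.023), as it did with all 10 libraries when genes with a mean count under 50 were left out (adjusted p = 0.047). Without that control 4 members were higher (Ech1, Phyh, Cat and Hsd17b4) and 1 was lower (Ehhadh), while Pex16 was not called (adjusted p = 0.064 by edgeR). In that fit 443 genes were called in all, against 368 with all 10 libraries.

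**Figure D4:**
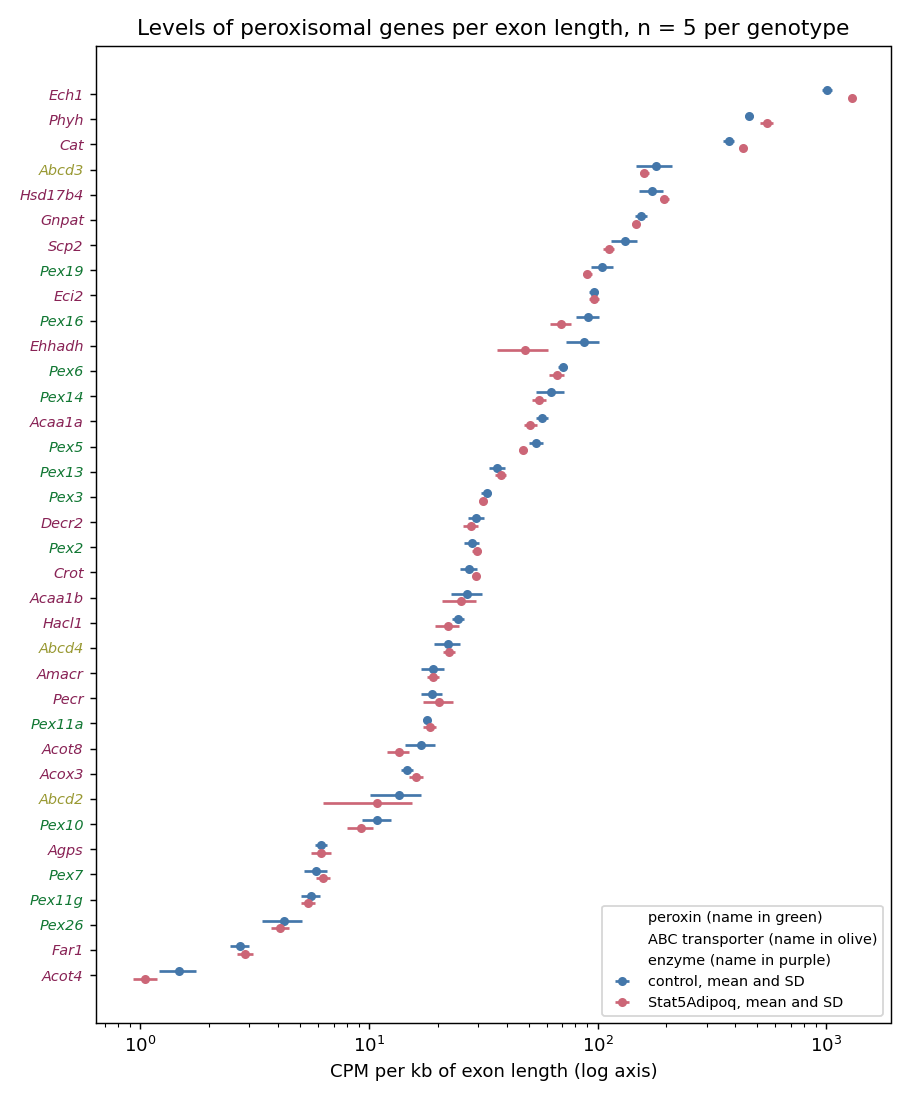
Mean CPM per kb of exon length of the 36 members on a log axis, with SD (bars, n = 5 per genotype), ordered by the control mean, with gene names coloured by class. The 3 enzymes Ech1, Phyh and Cat stand at the top at 1006, 460 and 375 CPM per kb in control BAT, and the peroxins lie between 4.24 and 105.

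Levels of different genes were compared per kb of exon length. In control BAT, Ech1 (1006 ± 49.7 CPM per kb, SD, n = 5), Phyh (460 ± 18.3) and Cat (375 ± 21.2) were the 3 highest members, and these were also the 3 that were higher in Stat5Adipoq BAT without overlap. Abcd3, Hsd17b4, Gnpat and Scp2 followed at 179, 173, 155 and 132 CPM per kb. Pex19 was the highest peroxin, at 105 CPM per kb, and Pex26 the lowest, at 4.24 CPM per kb. The 2 members that fell were in the upper part of the order, Pex16 at 90.9 and Ehhadh at 87.4 CPM per kb in control BAT. Ehhadh went to 48.4 and Pex16 to 69.3 CPM per kb in Stat5Adipoq BAT. The lowest members were Acot4, at 1.48, and Far1, at 2.71 CPM per kb.

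Other peroxisomal genes were counted in the same way. Of a wider list of 58, 48 were tested, and 2 were higher and 1 was lower by edgeR, which is 6.25% of those tested beside 2.71% of all genes. DESeq2 called 2 higher and 1 lower as well, where it called 2.40% and 2.46% of all genes. An unadjusted p under 0.05 was found for 15 of the 48, 6 higher and 9 lower. The share over all genes was 15.2%, with 974 higher and 1090 lower. The median log2 fold change of the 48 was -0.02. Pmvk, a kinase of the mevalonate pathway whose place in the peroxisome is debated, fell from 130 ± 15.7 CPM (SD, n = 5) to 93.3 ± 7.01 CPM (SD, n = 5), with an adjusted p of 0.012 by edgeR. Dhrs4, a carbonyl reductase, rose from 147 ± 4.31 to 172 ± 10.03 CPM (adjusted p = 0.047 by edgeR), and Trim37, a ubiquitin ligase that acts on PEX5, from 17.1 ± 2.08 to 23.0 ± 2.27 CPM (adjusted p = 0.046 by edgeR). Of 7 PPARs, RXRs and coactivators none was called by edgeR or DESeq2 and 2 had an unadjusted p under 0.05. These were Ppara (log2 fold change 0.27, adjusted p = 0.24 by edgeR) and Pparg (0.19, adjusted p = 0.24).

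Mitochondrial β-oxidation was set beside the peroxisomal enzymes. Of its 20 listed genes 3 were higher and none was lower by edgeR, which called 1.40% of all genes higher and 1.31% lower. DESeq2 called 5 higher and none lower, beside 2.40% and 2.46% of all genes. At an unadjusted p under 0.05, 10 were higher and 1 was lower. The share over all genes was 15.2%, with 974 higher and 1090 lower. The lower gene was Acad11 (log2 fold change -0.26, adjusted p = 0.19 by edgeR). In which organelle its product acts was not examined here. The 3 genes called by edgeR were Hadhb (log2 fold change 0.38) and Hadha (0.30), which encode the trifunctional protein, and Acadl (0.26), a long-chain acyl-CoA dehydrogenase. The median log2 fold change was 0.14 for the mitochondrial list and 0.003 for the 20 peroxisomal enzymes, and fold changes were below 0 for 3 and 9 genes of these lists. For 6 of the 20 mitochondrial genes the Stat5Adipoq libraries were all above the controls, which was the case for 3 of the 20 peroxisomal enzymes and 2.35% of all tested genes. The difference between the lists was not tested. Ech1, with its product in both organelles, had a fold change close to that of Hadhb, while Ehhadh had one of the opposite direction to Hadha, which encodes the mitochondrial enzyme of the corresponding steps.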

How the data were processed

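RNA-Seq of BAT gave 1 file of counts per gene for each of 10 libraries. The authors aligned single reads of 50 bases to GRCm38 with STAR 2.5.0b and the Ensgene annotation, and deposited raw counts over exons from featureCounts 1.5.0-p1, without normalization. The strand setting is not given in the sources used here. The deposited table of the authors' comparison (means, fold changes and p-values, made with DESeq2 1.16.1) served here only to pair gene symbols with Entrez identifiers, and its subsets were not used.

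The members and all gene lists were chosen with earlier results of these data known. The authors' limit on low counts was kept, a row sum over 45 after division by size factors. The main test was edgeR 4.0.16 (quasi-likelihood, TMM scaling, no covariate) over all 13568 genes, with calls at an adjusted p under 0.05. The F statistic and fold change give the standard errors. For single members an exact permutation test (two-sided, log2 CPM, prior count 0.5) was added. Alternatives were DESeq2 1.42.0, limma-voom (limma 3.58.1), other scalings and filters, a replicate block and fits without 1 library. Tested on simulated counts of 13568 genes with 200 changed 2-fold, edgeR recovered 98.0% and 6.22% of its calls were false, against 99.5% and 11.6% for DESeq2. The changed genes were drawn from those with a mean count of at least 50. Such a test does not cover genes with fewer counts or the smaller changes reported here. No library pair differed by sampling noise alone. 

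Exon length is the union of exons of GENCODE M21 transcripts paired with a RefSeq mRNA, and gene positions are those of RefSeq. Members with full values are those called by either tool, those whose libraries did not overlap, the 3 highest per kb and 7 preset genes (Pex5, Pex14, Hsd17b4, Acaa1a, Acaa1b, Scp2 and Cat). Others are given by fold change or range. Targeting signals in the proteins, which had been planned, were not analysed here, and 1 gene of the wider list is not reported by name. The depth, 8488129 to 19514904 counts, sets the counting error. The marker lists were for brown adipocytes, liver, skeletal muscle, macrophages, endothelium, white adipocytes, fibroblasts, Schwann cells and lymphocytes.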

Additional observations from a re-analysis of the deposited data

Results flagged for a closer look

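Over 28 groups of 5 libraries (the 11 members given in full and the medians of the 3 classes, each in both genotypes), 2 held a library whose gap to the others was large for the range of its group, where chance gives about 1.4. Phyh was 703.0 CPM in Stat5Adipoq replicate 4, against 793 to 824 CPM in the other Stat5Adipoq libraries, and without this library its log2 fold change was 0.30 and it was still called by edgeR. The median of the ABC transporters, in log2 CPM relative to the control mean of each gene, was 0.11 in Stat5Adipoq replicate 1, against -0.15 to -0.13 in the others.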

How the results depend on the processing

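With 5 libraries against 5, the direction of each of the 11 members given in full stayed as it was in all alternatives, and the calls of Ech1 stood in all of them. DESeq2 called 660 genes in all, 3 members higher and 5 mitochondrial genes. With library size as the only scaling, 1 member was higher (1 enzyme) and 1 gene of the wider list was called, and without a filter on low counts also 1 of the wider list. Equal replicate numbers did not pair the libraries, since the correlation of their deviations ranged from -0.26 to 0.19. No libraries of equal number were each other's best match. With the replicate block Phyh (adjusted p = 0.064 by edgeR) and Pex16 (0.14) were no longer called, so that 1 member was higher, 1 lower, 0 peroxins were lower, 1 enzyme was higher, 1 gene of the wider list and 273 genes in all were called. When 1 library was left out, all genes called ranged from 185 to 443, members higher from 1 to 4 and lower from 0 to 3, peroxins lower from 0 to 1, enzymes higher from 1 to 4 and lower from 0 to 2, genes of the wider list from 1 to 3 and of the mitochondrial list from 1 to 4. Members called higher went from 2 to 1 without control replicate 2, 4 or 5 or Stat5Adipoq replicate 1, 2, 3 or 5, and to 4 without control replicate 3. The mitochondrial list fell to 1 call without control replicate 2 or 4 or Stat5Adipoq replicate 3 or 5, and the wider list to 1 without control replicate 1, 2, 4 or 5 or Stat5Adipoq replicate 3, 4 or 5. Both members called lower were lost without control replicate 1 or Stat5Adipoq replicate 4. The median log2 fold change ranged from -0.10 to -0.04 for peroxins and from -0.03 to 0.03 for enzymes. These fits have fewer samples, and beyond that the cause of the lost calls was not tested.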
